A study of Syringa oblata with 2 samples.

Results

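The nitrate, peptide and oligopeptide transporters of *S. oblata* leaves were taken as the unigenes whose best Swiss-Prot description names an NRT1/PTR family (NPF) protein, a high-affinity nitrate transporter, an oligopeptide transporter, a metal-nicotianamine transporter YSL or an ammonium transporter. The rule matched 135 of 73159 unigenes, and 13 were dropped because their best match in the Nr protein database lies in rice (*Oryza*), which left 122 members. They comprised 76 unigenes of the NPF, 8 of the NRT2 and NRT3 group, 7 ammonium transporters (AMT), 12 oligopeptide transporters (OPT) and 19 yellow stripe-like transporters (YSL). Swiss-Prot writes the NPF name with a space after the slash, and the rule was applied with that space ignored, since as typed it matched 51 unigenes and no NPF protein.

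Leaves of Z1, grown under 40% to 50% shading by black nets, were compared with leaves of Z0, left in natural growth. RNA-seq was run on 2 libraries per condition, Z1-1 and Z1-2 against Z0-1 and Z0-2, and levels are in TPM, a transcript abundance that is scaled for transcript length and to a common total per library. All plants were outdoor *S. oblata* of 1 campus. The study's methods call the repeats biological and say that several trees were chosen per treatment, while how trees were divided between the libraries was not found there. The labels list 1 sample per condition, and the repeats were matched to conditions by their column names. RNA is described in the labels' extraction steps and in the study's methods, although the molecule field reads genomic DNA.

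Plants take up nitrate and ammonium from the soil and move them between tissues, and leaves reduce and assimilate most of what arrives. The NPF is a large family of proton-coupled carriers whose members move nitrate, short peptides, hormones such as abscisic acid and gibberellin, or glucosinolates, the defence compounds of the cabbage order. NRT2 proteins take up nitrate at low concentrations and most need a small partner of the NRT3 type (also called NAR2) to work at the plasma membrane. AMT proteins import ammonium. The related OPT and YSL families carry short peptides and metals, the YSL proteins mainly as complexes of iron or other metals with nicotianamine. Protein names here come from the best match in another species, mostly *Arabidopsis thaliana*, so a role given below is that of the named protein and was not measured in lilac.

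The leaf label was checked against markers. The 30 unigenes of Rubisco small subunits, Rubisco activase and chlorophyll a/b binding proteins summed to 25354 and 28206 TPM in Z1, and to 26959 and 25969 TPM in Z0. Markers of other cell types were low in all 4 libraries: 5 flower unigenes summed to 14.0 and 13.5 TPM in Z1, against 6.86 and 5.90 TPM in Z0, 7 phloem unigenes to 5.56 and 11.4 TPM in Z1, against 9.66 and 13.6 TPM in Z0, and the 1 root endodermis unigene stayed at or below 2.1 TPM. The libraries differed in another way that ran with the conditions. The 10 unigenes matched to a carlavirus held 0.147% and 0.0505% of the expression in Z1-1 and Z1-2, and 22.8% and 13.9% in Z0-1 and Z0-2. Rice-matched unigenes summed to 32956 TPM in Z1-2 and to between 2436 and 2955 TPM in the other libraries. Light, trees and virus level split the libraries in the same way and cannot be told apart, and in leaves measured in bulk fewer cells of a type and less RNA per cell cannot be told apart either.

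The members took a larger share of the summed TPM in Z1. That total includes the carlavirus-matched unigenes, at 22.8% and 13.9% in Z0-1 and Z0-2, which lowers the share of all other unigenes there. Their TPM summed to 0.504% and 0.367% of the expression in Z1-1 and Z1-2, against 0.168% and 0.226% in Z0-1 and Z0-2, so the conditions did not overlap. The largest differences in summed TPM were those of the NRT2 and NRT3 group, the NPF and the YSL family, and less came from the AMT and OPT families. The NRT2 and NRT3 unigenes summed to 1438 and 741 TPM in Z1, against 194 and 294 TPM in Z0, a 4.46-fold ratio of the means. The YSL unigenes summed to 1024 and 720 TPM in Z1, against 213 and 268 TPM in Z0, or 3.62-fold. The AMT unigenes summed to 287 and 209 TPM in Z1, against 63.9 and 88.1 TPM in Z0, or 3.27-fold. These 3 sums did not overlap between conditions by a wide margin. The NPF unigenes, the largest group, summed to 1961 and 1766 TPM in Z1, against 1042 and 1374 TPM in Z0, only 1.54-fold. The OPT unigenes overlapped, with 328 and 235 TPM in Z1, against 162 and 236 TPM in Z0. With 2 libraries against 2, an exact permutation test cannot go below p = 0.333, so the sums carry no test.

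**Figure D1:**
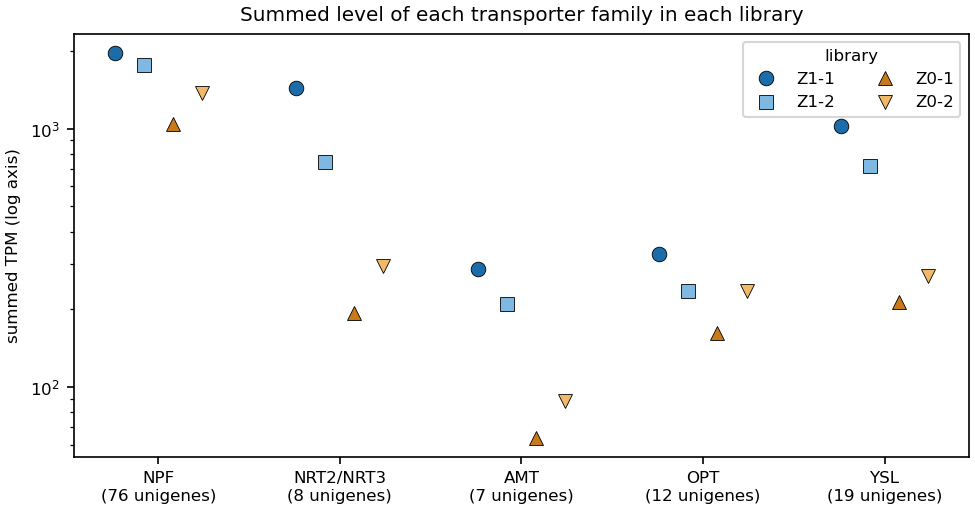
Summed TPM of each transporter family (log axis) in the libraries Z1-1, Z1-2, Z0-1 and Z0-2, with the number of unigenes under each name. The Z1 libraries lie above both Z0 libraries for NPF, NRT2/NRT3, AMT and YSL, while OPT overlaps at 235 TPM in Z1-2 and 236 TPM in Z0-2.

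Single unigenes were tested with limma on log2(TPM + 1) over all 73159 unigenes, and a unigene was called when its Benjamini-Hochberg adjusted p was below 0.05 and its log2 fold change (Z1 minus Z0) was beyond 1 in size, a fold of over 2. By this rule 12 of 122 members rose and 5 fell in Z1, beside 3.20% higher and 1.80% lower among all unigenes. The other 105 members were not called. At an unadjusted p under 0.05 with the same fold, 37 members lay higher and 12 lower, beside 16.5% and 7.71% of all unigenes. The libraries did not overlap for 61 members that were higher in Z1 and 25 that were lower, or 50.0% and 20.5% of the members, against 41.5% and 18.2% of all unigenes. The median log2 fold change of the members was 0.42, beside 0.45 over all unigenes. So the middle of the list sat where all unigenes sat, and the members that were called came from its ends.

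The count of calls depended on single libraries. Without Z1-1, 7 members were called, and without Z1-2, Z0-1 or Z0-2 none were, while at an unadjusted p 25, 19 and 26 members then lay higher in Z1 and 11 lay lower in each case. When libraries were rescaled by their median ratio over well expressed unigenes, the median of all unigenes moved by -0.22, and 9 members rose and 6 fell. With TMM scaling the median moved by -0.27, and 9 members rose and 7 fell. With the carlavirus-matched unigenes removed 10 rose and 6 fell, with the rice-matched ones removed 19 rose and 7 fell, and with both removed 15 rose and 9 fell.

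**Figure D2:**
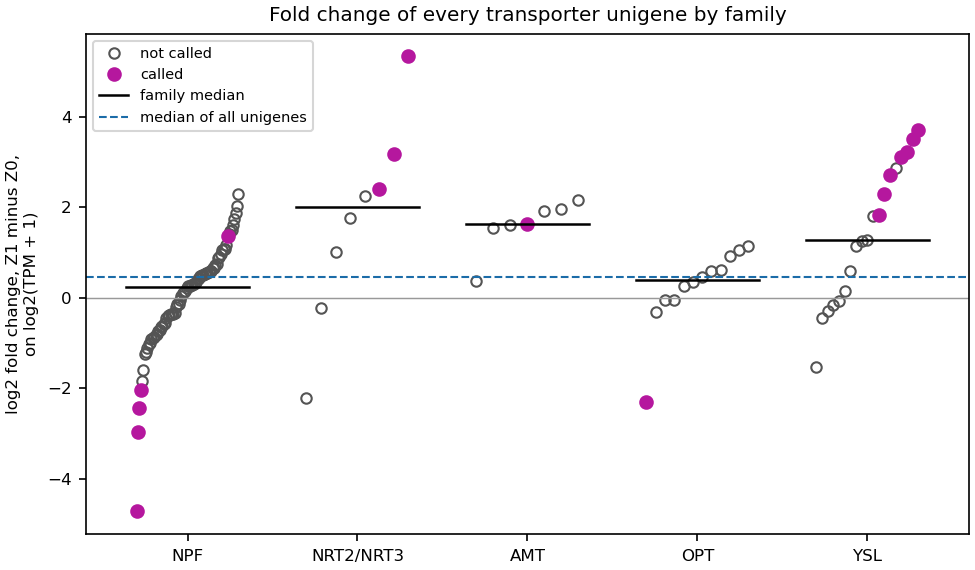
Log2 fold change (Z1 minus Z0, on log2(TPM + 1)) of each of the 122 transporter unigenes, sorted within its family, with called unigenes filled. The YSL and NRT2/NRT3 families hold 10 of the 12 members called higher, and the NPF holds 4 of the 5 called lower; the YSL5 and NPF5.15 unigenes listed at 0 TPM in 1 condition are drawn at values that depend on the added 1.

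High-affinity nitrate uptake held the member with the highest fold change. Of the 8 NRT2 and NRT3 unigenes, 3 rose and 0 fell with limma, and 5 were higher and 1 lower at an unadjusted p. Their median log2 fold change was 2.01. NRT2.5 is the high-affinity nitrate transporter that in *A. thaliana* is expressed most under long nitrogen starvation and also acts in leaf veins. Its unigene DN30567_c0_g4 had 69.9 and 41.0 TPM in Z1, against 0.27 and 0.44 TPM in Z0. It was close to absent from Z0 leaves, and its log2 fold change was 5.33 (SE 0.33, limma adjusted p = 0.0334). The neighbouring unigene DN30567_c0_g1 had 331 and 162 TPM in Z1, against 35.5 and 63.4 TPM in Z0. The other unigene of the name, DN37517_c2_g1, had 283 and 112 TPM in Z1, against 44.1 and 60.6 TPM in Z0. Both lay above Z0 in each Z1 library, but Z1-1 stood far above Z1-2, and limma gave log2 fold changes of 2.26 (adjusted p = 0.0657) and 1.77 (adjusted p = 0.106).

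NRT3.1, the partner protein that NRT2 transporters need, rose in both of its unigenes. DN35874_c0_g7 had 608 and 262 TPM in Z1, against 42.4 and 44.3 TPM in Z0, with a log2 fold change of 3.17 (SE 0.44, limma adjusted p = 0.0417). It was the most abundant member of all in Z1-1. DN37836_c0_g2 had 114 and 119 TPM in Z1, against 29.3 and 15.1 TPM in Z0, with a log2 fold change of 2.41 (SE 0.36, limma adjusted p = 0.0447). The second call was lost under median ratio scaling (adjusted p = 0.0685) and TMM scaling (adjusted p = 0.0641). NAR2.2, a partner protein named from rice, was near the floor, with 2.72 and 1.84 TPM in Z1, against 1.63 and 0 TPM in Z0.

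NRT2.7, which in *A. thaliana* loads nitrate into seed vacuoles, lay on the other side in 1 of its 2 unigenes. Its unigene DN34963_c0_g2 had 5.17 and 7.35 TPM in Z1, against 19.7 and 52.9 TPM in Z0, so the conditions did not overlap. Its log2 fold change of -2.22 missed the threshold (limma adjusted p = 0.0789). The second unigene of the component, DN34963_c0_g1, had 25.2 and 35.8 TPM in Z1, against 21.3 and 57.7 TPM in Z0, and overlapped. Summed, the name also overlapped, with 30.3 and 43.1 TPM in Z1, against 41.0 and 111 TPM in Z0 (limma adjusted p = 0.338). The NRT2.5 and NRT3.1 unigenes thus lay on the Z1 side, and the NRT2.7 unigenes on the Z0 side or overlapping, a difference that was not itself tested.

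All 7 AMT unigenes lay above Z0 in each Z1 library, as 41.5% of all unigenes did. After median ratio or TMM scaling 6 of the 7 still did, and the share of all unigenes was not counted there. With limma 1 rose and 0 fell, and 6 were higher and 0 lower at an unadjusted p. The median log2 fold change was 1.64. AMT1-2, an ammonium importer of the AMT1 type, had 58.7 and 62.2 TPM in Z1, against 18.9 and 18.7 TPM in Z0. Both pairs of libraries were tight, and the log2 fold change was 1.64 (SE 0.19, limma adjusted p = 0.0371). The most abundant ammonium importer was AMT1-1 (DN32118_c0_g6), with 107 and 64.6 TPM in Z1, against 26.1 and 29.5 TPM in Z0, and a log2 fold change of 1.55 (limma adjusted p = 0.0618). AMT2 had 22.1 and 13.7 TPM in Z1, against 1.95 and 4.77 TPM in Z0. AMT3-1 and AMT3-3, which share a Trinity component and take their names from rice, followed the same pattern. AMT3-1 had 55.0 and 38.5 TPM in Z1, against 7.58 and 17.2 TPM in Z0. AMT3-3 had 33.3 and 16.9 TPM in Z1, against 2.93 and 9.15 TPM in Z0. None of these 3 passed the limma test, with adjusted p of 0.0640, 0.0772 and 0.115. AMT1-3 differed least, with 8.82 and 11.4 TPM in Z1, against 6.4 and 8.76 TPM in Z0, and it was the one that overlapped after scaling.

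The YSL family held 7 of the 12 members that rose. With limma 7 of its 19 unigenes rose and 0 fell, 12 were higher and 0 lower at an unadjusted p, and the median log2 fold change was 1.27. The calls were concentrated in the names YSL5, YSL7, YSL8 and YSL13, a grouping made after their values were seen. Of their 8 unigenes 6 rose, beside 3.20% of all unigenes. All 8 lay above Z0 in each Z1 library, also after median ratio or TMM scaling, beside 41.5% of all unigenes before scaling. Since the names were grouped on their values, these counts follow in part from the choice. In *A. thaliana* YSL7 and YSL8 have been linked to the uptake of a peptide-like bacterial toxin, and a metal substrate of this branch is less well settled than for YSL1 and YSL3.

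YSL8 (DN34560_c1_g1) was the most abundant YSL unigene, with 345 and 265 TPM in Z1, against 34.2 and 60.4 TPM in Z0, and a log2 fold change of 2.71 (SE 0.35, limma adjusted p = 0.0392). YSL7 was next. Its unigene DN37939_c1_g1 had 212 and 109 TPM in Z1, against 13.7 and 20.5 TPM in Z0, with a log2 fold change of 3.11 (SE 0.41, limma adjusted p = 0.0399). Its unigene DN37939_c0_g1 had 48.4 and 31.2 TPM in Z1, against 2.09 and 4.81 TPM in Z0, with a log2 fold change of 3.23 (SE 0.42, limma adjusted p = 0.0394). The longest YSL7 unigene, DN36419_c1_g1 of 2433 nt, had 94.0 and 38.6 TPM in Z1, against 12.1 and 22.6 TPM in Z0, and was not called (limma adjusted p = 0.116). In each of these, Z1-1 was above Z1-2 and Z0-2 above Z0-1, yet the lowest Z1 value stayed above the highest Z0 value.

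YSL5 was low or absent in Z0 leaves. DN30382_c0_g1 had 35.7 and 12.0 TPM in Z1, against 0.81 and 0.55 TPM in Z0, with a log2 fold change of 3.71 (SE 0.55, limma adjusted p = 0.0447). DN27106_c0_g2 had 13.7 and 7.75 TPM in Z1 and was listed at 0 in both Z0 libraries (limma adjusted p = 0.0340), so no fold is given. DN37939_c1_g2 had 20.8 and 7.35 TPM in Z1, against 0.48 and 1.32 TPM in Z0, and just missed the threshold (limma adjusted p = 0.0594). YSL13, a name from rice, belongs to the same Trinity component as the second of these. DN27106_c0_g1 had 63.9 and 46.2 TPM in Z1, against 10.6 and 9.88 TPM in Z0, with a log2 fold change of 2.30 (SE 0.25, limma adjusted p = 0.0358).

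The other YSL names include those best known for iron transport. YSL1 and YSL3 move iron and zinc between vascular tissue and leaf or seed in *A. thaliana*. Of the 11 unigenes named YSL1, YSL2, YSL3, YSL6 and YSL10, 1 rose and 0 fell with limma, and 4 were higher and 0 lower at an unadjusted p. The difference from the names above was not tested. YSL3 (DN36198_c2_g2), a 285 nt unigene, had 11.0 and 12.6 TPM in Z1, against 2.85 and 2.38 TPM in Z0, with a log2 fold change of 1.82 (SE 0.24, limma adjusted p = 0.0395), a call that was lost by a small margin under median ratio scaling (adjusted p = 0.0511) and TMM scaling (adjusted p = 0.0504). The 3 other YSL3 unigenes of its component were not called, and the longest of them, DN36198_c2_g1, overlapped with 6.08 and 10.5 TPM in Z1, against 9.55 and 8.52 TPM in Z0. YSL1 had 88.5 and 78.8 TPM in Z1, against 26.1 and 44.7 TPM in Z0 (log2 fold change 1.26, limma adjusted p = 0.0865). YSL6, linked to iron release inside the cell, overlapped with 31.3 and 36.3 TPM in Z1, against 28.9 and 32.2 TPM in Z0. The 3 YSL2 unigenes had negative log2 fold changes of -0.28, -0.45 and -1.53, none called. The low one, DN33612_c2_g1, rested on Z0-1, with 0.37 and 0.57 TPM in Z1, against 8.62 and 0.86 TPM in Z0. Its whole Trinity component of 5 unigenes, of which 2 are members, lay on the other side. That component summed to 135 and 62.3 TPM in Z1, against 28.2 and 11.2 TPM in Z0 (log2 fold change 2.29, limma adjusted p = 0.0956).

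**Figure D3:**
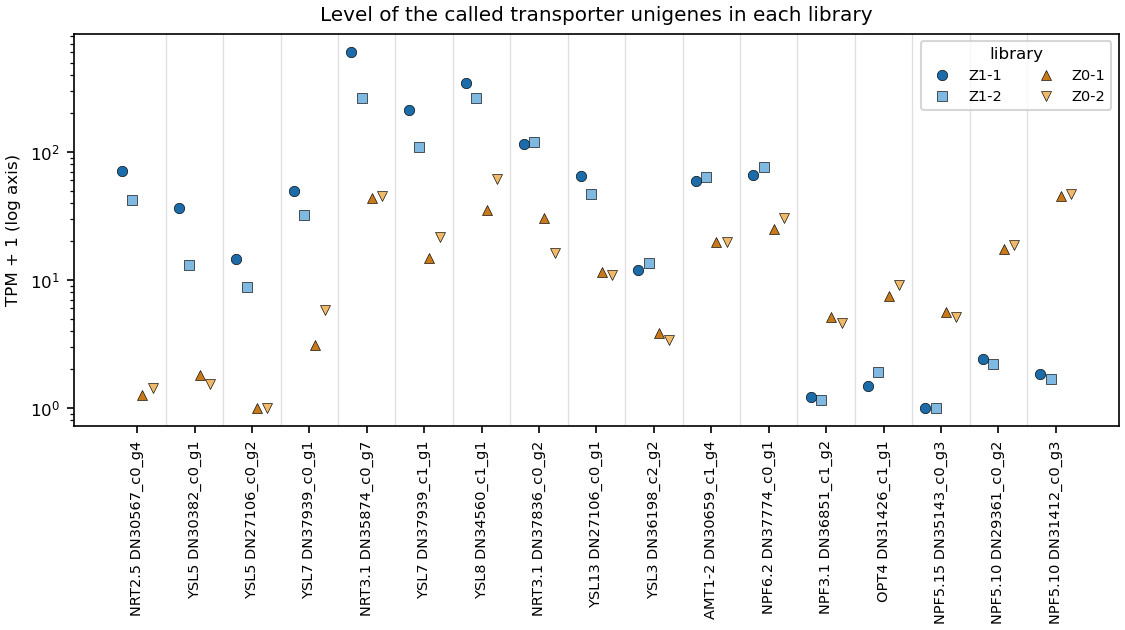
TPM + 1 (log axis) of the 17 called transporter unigenes in the libraries Z1-1, Z1-2, Z0-1 and Z0-2, ordered by log2 fold change. NRT2.5 (69.9 and 41.0 TPM in Z1, 0.27 and 0.44 TPM in Z0) and NPF5.10 (0.84 and 0.67 TPM in Z1, 44.4 and 46.1 TPM in Z0) stand at the ends, and 8 of the 12 unigenes that rose were higher in Z1-1 than in Z1-2.

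Few OPT unigenes were called. The libraries did not overlap for 6 that were higher in Z1 and 2 that were lower. These are 50.0% and 16.7%, beside 41.5% and 18.2% of all unigenes. The counts became 4 and 3 under median ratio or TMM scaling. Of 12 unigenes 0 rose and 1 fell with limma, 2 were higher and 1 lower at an unadjusted p, and the median log2 fold change was 0.40. OPT4 carries short peptides when expressed in yeast. Its unigene DN31426_c1_g1 had 0.48 and 0.92 TPM in Z1, against 6.54 and 8.07 TPM in Z0, and fell by 2.29 on the log2 scale (SE 0.28, limma adjusted p = 0.0384). The fall was not seen in its whole Trinity component of 6 unigenes, of which 1 is a member. That component summed to 29.1 and 31.0 TPM in Z1, against 27.4 and 35.6 TPM in Z0 (log2 fold change -0.06, limma adjusted p = 0.859). A second OPT4 unigene in another Trinity component, DN32323_c0_g3, was far more abundant and overlapped, with 194 and 112 TPM in Z1, against 52.5 and 114 TPM in Z0. OPT3, which in *A. thaliana* brings iron into the phloem and takes part in signalling iron status from leaf to root, overlapped in its most abundant unigene. DN37043_c0_g1 had 29.5 and 35.7 TPM in Z1, against 29.8 and 37.8 TPM in Z0, with a log2 fold change of -0.05 (SE 0.24).

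The NPF, with 76 unigenes, was split. With limma 1 rose and 4 fell, and 12 were higher and 10 lower at an unadjusted p. The median log2 fold change was 0.24, and it became -0.03 under median ratio scaling and -0.07 under TMM scaling, so the median has no direction that holds across scalings. The libraries did not overlap for 30 unigenes that were higher in Z1 and 20 that were lower. These are 39.5% and 26.3% of the NPF, beside 41.5% and 18.2% of all unigenes, so the higher share was near that of all unigenes. The counts became 21 and 24 under median ratio scaling. The unigenes are given below by the role of the named protein, and differences between roles were not tested.

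The peptide carriers NPF8.1, NPF8.3 and NPF5.2, known in *A. thaliana* as PTR1, PTR2 and PTR3, leaned to Z1. Of their 9 unigenes 0 were called with limma, 6 were higher and 1 lower at an unadjusted p, and the median log2 fold change was 1.16. Together they summed to 890 and 618 TPM in Z1, against 215 and 328 TPM in Z0. The most abundant was NPF8.1 DN32786_c0_g3, with 345 and 267 TPM in Z1, against 87.7 and 146 TPM in Z0 (log2 fold change 1.42, SE 0.33, limma adjusted p = 0.0770). NPF8.1 DN37628_c0_g1 had 123 and 80.8 TPM in Z1, against 24.7 and 34.2 TPM in Z0 (log2 fold change 1.74, limma adjusted p = 0.0535). NPF5.2 DN30821_c2_g2 had 200 and 91.3 TPM in Z1, against 23.2 and 45.0 TPM in Z0 (log2 fold change 2.03, limma adjusted p = 0.0887). The Z1 libraries were higher in all 3, but none was called. One NPF8.1 unigene went the other way: DN31951_c0_g2 had 4.25 and 0.90 TPM in Z1, against 7.2 and 14.7 TPM in Z0 (log2 fold change -1.84, limma adjusted p = 0.139), while DN31951_c0_g1 of the same component had 38.5 and 19.4 TPM in Z1, against 11.3 and 14.0 TPM in Z0.

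The nitrate carriers of the NPF were called once in each direction. Of 27 unigenes named for nitrate transport 1 rose and 1 fell with limma, 1 was higher and 4 lower at an unadjusted p, and the median log2 fold change was -0.19. NPF6.2, which in *A. thaliana* stores nitrate in the petiole, held the one that rose. DN37774_c0_g1 had 65.4 and 75.8 TPM in Z1, against 24.0 and 29.6 TPM in Z0, with a log2 fold change of 1.37 (SE 0.22, limma adjusted p = 0.0485). This call was the weakest by adjusted p among the 17 called members and was lost under median ratio scaling (adjusted p = 0.0557) and TMM scaling (adjusted p = 0.0634). NPF6.3, the nitrate sensor and transporter of roots and guard cells, was not called. Its most abundant unigene, DN30453_c4_g1, had 54.5 and 49.2 TPM in Z1, against 36.4 and 41.3 TPM in Z0. NPF6.4 overlapped with 34.3 and 59.8 TPM in Z1, against 55.6 and 69.7 TPM in Z0. NPF7.3, which loads nitrate into the root xylem, had 17.3 and 27.9 TPM in Z1, against 31.8 and 56.5 TPM in Z0 in its most abundant unigene (limma adjusted p = 0.210). NPF2.13, which loads nitrate into the phloem of old leaves, had 21.2 and 29.9 TPM in Z1, against 11.9 and 18.0 TPM in Z0 (limma adjusted p = 0.203).

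The NPF names tied to hormones were lower in Z1 or overlapped. Of 14 unigenes, 13 of them also in the nitrate list, 0 rose and 1 fell with limma, and 0 were higher and 3 lower at an unadjusted p. In none did both Z1 libraries lie above both Z0 libraries, against 6 (42.9%) that lay below. Among all unigenes these shares were 41.5% and 18.2%. NPF3.1 carries gibberellin in *A. thaliana*. All 4 of its unigenes lay below Z0 in each Z1 library, also after median ratio or TMM scaling. The most abundant, DN36851_c1_g1, had 57.3 and 69.2 TPM in Z1, against 114 and 145 TPM in Z0, with a log2 fold change of -1.02 (SE 0.23, limma adjusted p = 0.0767), which passed under median ratio scaling (adjusted p = 0.0471) and TMM scaling (adjusted p = 0.0463). Its 400 nt neighbour DN36851_c1_g2 had 0.22 and 0.16 TPM in Z1, against 4.1 and 3.62 TPM in Z0, and fell by 2.03 on the log2 scale (SE 0.28, limma adjusted p = 0.0414). NPF3.1 DN36021_c1_g6 had 5.93 and 10.2 TPM in Z1, against 15.4 and 14.0 TPM in Z0 (log2 fold change -0.83). Its whole Trinity component of 8 unigenes, of which 1 is a member, lay on the other side. That component summed to 266 and 114 TPM in Z1, against 36.8 and 61.4 TPM in Z0 (log2 fold change 1.85, limma adjusted p = 0.105). NPF4.6, the abscisic acid importer also known as NRT1.2, was low in all libraries: its 9 unigenes summed to 32.4 and 37.1 TPM in Z1, against 40.6 and 40.9 TPM in Z0, and none was called with limma, with 0 higher and 1 lower at an unadjusted p.

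The NPF names tied to glucosinolates are NPF2.10 and NPF2.11. Of 6 unigenes 0 were called with limma, and 1 was higher and 0 lower at an unadjusted p. The most abundant, NPF2.11 DN36162_c1_g2, had 228 and 108 TPM in Z1, against 31.9 and 93.3 TPM in Z0 (log2 fold change 1.51, limma adjusted p = 0.207), so its spread within each condition was wide. NPF5.16, one of the vacuolar nitrate exporters of *A. thaliana*, had 5.2 and 1.93 TPM in Z1, against 0.38 and 0.43 TPM in Z0 (log2 fold change 1.60, limma adjusted p = 0.105).

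Opposite movers were found under single names and even within single Trinity components, the groups of sequences that the assembler built from 1 connected set of reads. NPF5.10 showed this most. The name covers 17 unigenes in 6 components, and its substrate is not assigned here. Its unigene DN31412_c0_g3 had 0.84 and 0.67 TPM in Z1, against 44.4 and 46.1 TPM in Z0, and fell by 4.72 on the log2 scale (SE 0.22, limma adjusted p = 0.0334), the lowest log2 fold change of all members. DN29361_c0_g2 had 1.42 and 1.2 TPM in Z1, against 16.3 and 17.9 TPM in Z0, and fell by 2.97 on the log2 scale (SE 0.23, limma adjusted p = 0.0334). In both, the libraries of a condition lay close together and the conditions far apart.

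Some neighbours of these unigenes lay on the other side or overlapped. In component DN31412_c0, g1 had 9.17 and 8.78 TPM in Z1, against 3.41 and 4.05 TPM in Z0 (log2 fold change 1.08, limma adjusted p = 0.0680), on the opposite side of g3. The g5 unigene was on the side of g3, with 3.54 and 2.49 TPM in Z1, against 8.62 and 8.25 TPM in Z0 (log2 fold change -1.24, limma adjusted p = 0.0646). The g2 unigene overlapped, with 15.2 and 39.0 TPM in Z1, against 20.5 and 19.5 TPM in Z0. In component DN29361_c0, g1 overlapped with 29.6 and 54.8 TPM in Z1, against 38.6 and 36.0 TPM in Z0, and g3 had 4.2 and 4.61 TPM in Z1, against 3.22 and 3.82 TPM in Z0. Summed over its 17 unigenes, NPF5.10 had 193 and 279 TPM in Z1, against 228 and 227 TPM in Z0, a log2 fold change of 0.03 (limma adjusted p = 0.936). The summed name thus overlapped between conditions, while 2 of its unigenes were below 2 TPM in both Z1 libraries and above 10 TPM in both Z0 libraries.

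**Figure D4:**
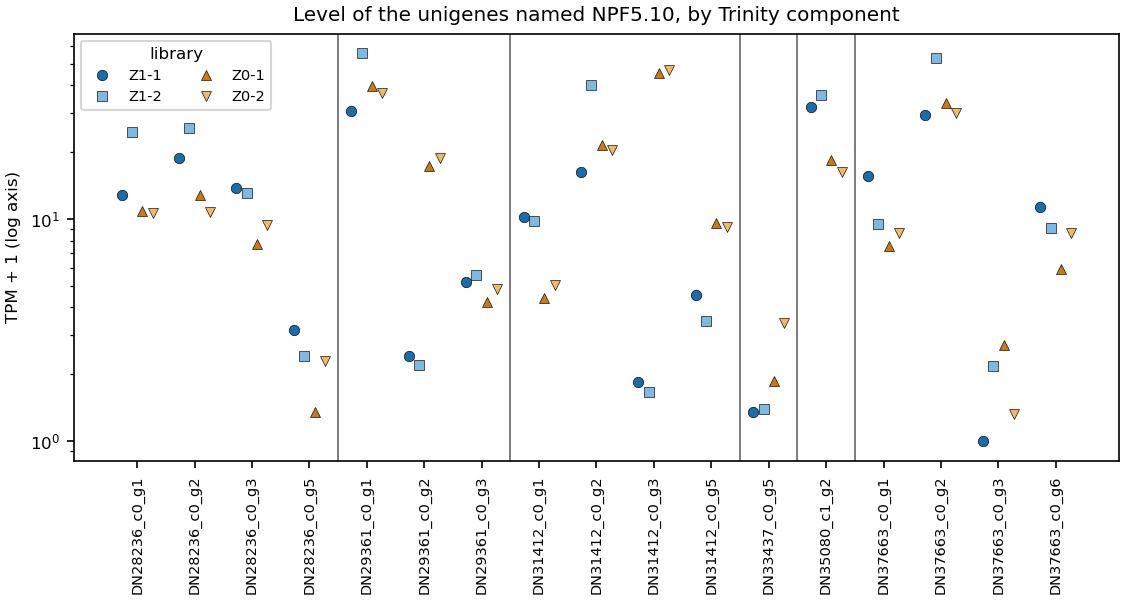
TPM + 1 (log axis) of the 17 unigenes named NPF5.10 in the libraries Z1-1, Z1-2, Z0-1 and Z0-2, with vertical lines between Trinity components. DN29361_c0_g2 and DN31412_c0_g3 lie far below their Z0 levels in both Z1 libraries, while DN31412_c0_g1 lies above, at 9.17 and 8.78 TPM in Z1 against 3.41 and 4.05 TPM in Z0.

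NPF5.15 and NPF5.16 shared component DN35143_c0 and split in the same manner. NPF5.15 DN35143_c0_g3 was listed at 0 in both Z1 libraries and had 4.59 and 4.18 TPM in Z0 (limma adjusted p = 0.0370), so no fold is given. NPF5.15 DN35143_c0_g1 overlapped, with 9.18 and 13.3 TPM in Z1, against 11.1 and 13.5 TPM in Z0, and the NPF5.16 unigene of the component, given above, lay higher in Z1. Of the 27 components with more than 1 member, which hold 66 members, 11 had log2 fold changes of both signs. The median length of the called members was 912 nt, close to the 999 nt of those not called. Of the 36 members of at least 1500 nt 3 were called, with 14 higher and 2 lower at an unadjusted p. Whether short unigenes of one component are alleles, copies, splice forms or pieces of 1 transcript was not tested, and reads that several of them could take cannot be told apart in these values.

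The calls were counted again on 2 coarser units. With TPM summed per Trinity component, 0 of 83 components with members were called with limma, and 25 were higher and 5 lower at an unadjusted p. The smallest adjusted p was 0.0546. A component can join unrelated genes. The YSL8, YSL7 DN37939_c0 and YSL5 DN30382_c0 components hold 1 unigene each, so their log2 fold changes of 2.71, 3.23 and 3.71 could not move. Their adjusted p became 0.0546, 0.0546 and 0.0595. Several components with more unigenes lay closer to no change than their called unigene did. Log2 fold changes were 1.93 for NRT2.5 DN30567_c0, 1.73 for NRT3.1 DN35874_c0, 1.39 for NRT3.1 DN37836_c0 and -1.05 for NPF5.10 DN31412_c0. OPT4 DN31426_c1 and NPF5.15 DN35143_c0 came to -0.06 and -0.19. The YSL components DN37939_c1 and DN27106_c0 lay at 3.15 and 2.55. With the members summed per protein name, a unit chosen after the data were seen, 6 of 48 names rose and 0 fell, and 18 were higher and 1 lower at an unadjusted p. The names that rose were YSL5, NRT3.1, YSL7, YSL8, YSL13 and AMT1-2, with log2 fold changes of 4.13, 2.99, 2.75, 2.71, 2.30 and 1.64. NRT2.5 summed to 683 and 315 TPM in Z1, against 79.9 and 124 TPM in Z0, and just missed the threshold (log2 fold change 2.21, limma adjusted p = 0.0662). AMT1-2, YSL8 and YSL13 have 1 unigene each, so their sums are the values already given. Among names with several unigenes and at least 1 called, NRT3.1, YSL5 and YSL7 were called as sums. The other such names were not: besides NRT2.5, the summed NPF6.2, YSL3, OPT4, NPF5.10, NPF5.15 and NPF3.1 had log2 fold changes of 1.21, 0.87, 0.80, 0.03, -0.55 and -0.95.

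**Figure D5:**
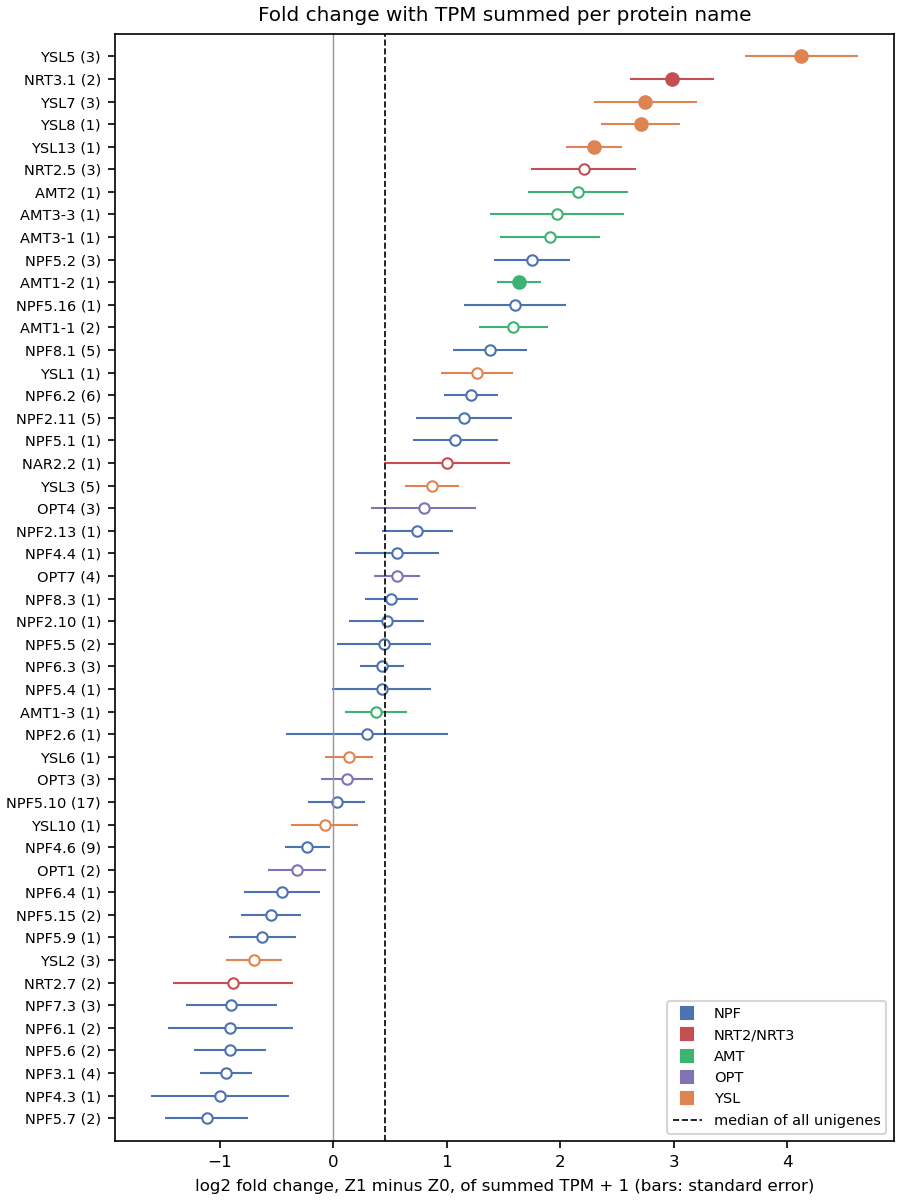
Log2 fold change (Z1 minus Z0) of TPM summed per protein name for 48 names, with the number of unigenes in parentheses, bars for the standard error from limma and filled points for called names. The 6 filled points, from YSL5 at 4.13 to AMT1-2 at 1.64, all lie right of the dashed median of all unigenes at 0.45.

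The repeats within a condition were not equally tight for these genes. Of the 60 members with a mean of at least 10 TPM, 19 (31.7%) were over 1.5 times higher in Z1-1 than in Z1-2, against 14.9% of all 11601 such unigenes, and 10 (16.7%) the other way, against 9.10%. In Z0, 22 (36.7%) were over 1.5 times higher in Z0-2 than in Z0-1, against 19.8%, and 1 (1.67%) the other way, against 4.12%. Of the 12 members that rose, 8 were higher in Z1-1 than in Z1-2, 6 of them by over 1.5 times. The library with less carlavirus-matched RNA was Z1-2 in Z1 and Z0-2 in Z0, and the part of the virus in the spread of the repeats was not tested.

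Genes that act next to the transporters were counted from lists drawn on the same annotation. Of 49 unigenes of nitrogen assimilation 3 rose and 0 fell with limma, and 9 were higher and 3 lower at an unadjusted p. The 3 that rose were 1 unigene of NIR1, nitrite reductase, and 2 of NIA2, nitrate reductase, the enzymes that reduce nitrate to ammonium once it has entered the cell. NIR1 had 266 and 182 TPM in Z1, against 47.4 and 35.1 TPM in Z0 (log2 fold change 2.4, SE 0.29, limma adjusted p = 0.0380). Its level thus lay above Z0 in both Z1 libraries, as those of NRT3.1 and AMT1-2 and of 41.5% of all unigenes did. NIA2 DN30816_c0_g5 had 113 and 76.4 TPM in Z1, against 14.1 and 20.6 TPM in Z0 (log2 fold change 2.37, limma adjusted p = 0.0400). Of 11 NLP unigenes, transcription factors of the nitrate response, 1 rose and 0 fell, and 2 were higher and 0 lower at an unadjusted p. The one that rose, NLP2, had 3.72 and 3.62 TPM in Z1, against 0.56 and 0.24 TPM in Z0 (log2 fold change 1.75, limma adjusted p = 0.0495).

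Metal genes were counted in the same way. Of 33 unigenes of metal handling (nicotianamine synthase, ferritin, iron and copper transporters and ferric reductases) 0 rose and 1 fell with limma, and 5 were higher and 2 lower at an unadjusted p. Nicotianamine synthase makes the metal ligand that YSL proteins carry. Its unigene DN25480_c0_g2 had 22.3 and 33.2 TPM in Z1, against 5.67 and 8.62 TPM in Z0, and just missed the threshold (log2 fold change 1.82, limma adjusted p = 0.0534). Of 78 amino acid carriers 1 rose and 1 fell, and 16 were higher and 5 lower at an unadjusted p, and of 21 anion channels none was called, with 5 higher and 0 lower at an unadjusted p. These lists called 2.56% to 9.09% of their unigenes except the anion channels, beside 3.20% higher and 1.80% lower among all unigenes. The NPF and the OPT family lay in the range of these lists, with 6.58% and 8.33% called. The share called was higher in the AMT family (14.3%, 1 of 7), the YSL family (36.8%, 7 of 19) and the NRT2 and NRT3 group (37.5%, 3 of 8). The OPT share (1 of 12) and the AMT share rest on 1 call each. The differences between lists were not tested.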

How the data were processed

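RNA-seq of leaves gave 4 libraries, 2 per condition. The authors assembled the reads with Trinity 2.4.0 and deposited TPM, as estimated by Salmon, together with the length and annotation of 73159 unigenes; the submitters' processing notes also name cutadapt, FastQC and edgeR, with versions not given in the sources used here. TPM keep no read counts, so depth and counting error are unknown.

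TPM were taken as log2(TPM + 1), a scale that understates the fold of low unigenes. A filter at 1 TPM in 1 library removed no unigene. limma 3.58.1 in R 4.3.3 was run over all unigenes with a trended prior, no covariate and Benjamini-Hochberg adjustment. Python 3.11.15 with pandas 2.3.3 and matplotlib 3.10.9 served for counts and plots. The fit was tested on simulated data. Alternatives were other pseudocounts, filters, scalings (TMM trimmed 30% of M and 5% of A), removal of carlavirus-matched or rice-matched unigenes, sums per Trinity component, a replicate block and leaving out each library.

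The members and lists were chosen with earlier results of these data known. Named were, per family, up to 10 called members, the 2 most abundant, those sharing a component with a called one and, over all members, the 5 highest and 5 lowest non-overlapping fold changes at 5 TPM or more; 37 members met this. Other members were named after their values were seen. No reference sequences were used.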

Additional observations from a re-analysis of the deposited data

How the results depend on the processing

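Depth was unknown and 2 libraries per condition limit every call. Beside 17 of 122 members as reported, 4 were called at a pseudocount of 0.1 and 0 at 5, 35 of 85 with a filter at 5 TPM, 26 without rice-matched unigenes, 0 of 83 with sums per Trinity component, 6 of 48 per protein name and 49 at an unadjusted p; over all unigenes the counts were 553, 0, 5449, 8170, 5 and 17714, beside 3661, and 6887 without carlavirus- and rice-matched unigenes. At the pseudocount of 5, 27 members were higher and 5 lower at an unadjusted p. Leaving out 1 library gave 0 to 7 called members and 0 to 8378 called unigenes. Of the 17 reported calls, 14 were shared with TMM and with median ratio scaling, 15 with the fit without carlavirus-matched unigenes and 15 with the filter at 5 TPM. The cause of these changes was not tested.

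The library numbers do not pair the samples (r = -0.09 between same-numbered deviations, over 2 pairs); with the replicate block 17 members and 3999 unigenes were called, AMT1-2 and NPF6.2 were lost (adjusted p = 0.0501 and 0.0701), and NRT2.7 DN34963_c0_g2 and YSL5 DN37939_c1_g2 were gained.

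The log2 ratio of family sums was 0.64 for the NPF and became 0.32 under median ratio scaling, 0.26 under TMM, 0.34 without carlavirus-matched and 0.37 without carlavirus- and rice-matched unigenes. Under TMM the AMT ratio was 1.33 (1.71 as deposited), the OPT ratio 0.12 (0.51) and the YSL ratio 1.46 (1.84), and under median ratio scaling the YSL ratio was 1.53.

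Signs turned for 13 named members. Summed per component, NPF5.16 became -0.19, NPF5.10 DN31412_c0_g1 and DN31412_c0_g2 -1.05, NPF5.10 DN29361_c0_g1 and DN29361_c0_g3 -0.32, NPF8.1 DN31951_c0_g2 0.24 and YSL3 DN36198_c2_g1 0.97. Summed per name, NPF5.10 became 0.031 (turning the sign of DN31412_c0_g5 and of the called DN31412_c0_g3 and DN29361_c0_g2), NPF8.1 1.38, OPT3 0.12, OPT4 0.80 (turning the called DN31426_c1_g1) and YSL3 0.87. NPF5.10 DN31412_c0_g2 became -0.024 under median ratio scaling, -0.088 under TMM and -0.0049 without carlavirus-matched unigenes, NPF5.10 DN29361_c0_g1 became -0.20, -0.26 and -0.18 in the same 3 and -0.16 without carlavirus- and rice-matched unigenes, and DN29361_c0_g3 became -0.043 under TMM. Leaving out 1 library, NPF5.10 DN31412_c0_g2 ranged between -0.38 and 0.93, NPF5.10 DN29361_c0_g1 between -0.32 and 0.54, NPF5.15 DN35143_c0_g1 between -0.38 and 0.11, OPT3 DN37043_c0_g1 between -0.21 and 0.12 and YSL3 DN36198_c2_g1 between -0.50 and 0.20.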

Other observations

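The 13 unigenes that met the rule on protein names but were dropped for a best match in rice were found almost only in Z1-2. They comprised NPF8.1, NPF8.3, NPF8.4, NPF8.5, NPF6.2, NPF2.11, AMT1-1 and YSL6 names. Each had between 2.70 and 11.1 TPM in Z1-2 and was listed at 0 in Z1-1, and none exceeded 0.45 TPM in Z0. Together they summed to 0 and 62.5 TPM in Z1-1 and Z1-2, against 0.72 and 0.34 TPM in Z0-1 and Z0-2. None was called with limma, and 0 were called at an unadjusted p. Of the 122 members kept, 9 were listed at 0 in at least 1 library.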
